A study of Homo sapiens with 66 samples.

Results

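The etoposide response of 5 acute myeloid leukemia (AML) cell lines with a rearranged KMT2A gene was compared with that of 5 AML cell lines without it. The KMT2A-rearranged lines were MV-4-11, MOLM-13, THP-1, NOMO-1 and MONO-MAC-6, and the other lines were F-36P, HL-60, KASUMI-1, NB-4 and OCI-AML3. The classes were set by the known fusion status of each line, since the labels name the line but not its fusion. Each line was left untreated or was treated for 24 hours with etoposide at its own IC50, the concentration that lowers viability by 50%, and RNA of each group was sequenced in 3 libraries. The comparison used 60 of the 66 libraries in the series, 30 per class. The remaining 6 are those of OCI-AML2, whose etoposide-treated libraries the study discarded after quality control. The etoposide concentration therefore differed between lines, as did the culture medium, and F-36P was grown with GM-CSF. Every library was made from RNA of pooled wells of an established line, so replicates are cultures of a line and the number of independent lines is 5 per class. By the leukemia subtype listed for each, the KMT2A-rearranged lines all come from monocytic leukemia, OCI-AML3 comes from myelomonocytic leukemia and the other lines from non-monocytic types. Fusion class and monocytic type therefore cannot be told apart here.

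Etoposide is a topoisomerase II poison: it traps the enzyme on cut DNA and so leaves double-strand breaks. KMT2A encodes a histone H3 lysine 4 methyltransferase that keeps HOXA genes active during blood development. In leukemia its gene is broken and joined to a partner such as MLLT3 (in MOLM-13, MONO-MAC-6, NOMO-1 and THP-1) or AFF1 (in MV-4-11), and the fusion protein drives HOXA9 and MEIS1. KMT2A rearrangements are also the known mark of leukemias that arise after treatment with topoisomerase II poisons.

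Gene counts summed to at least 17997404 and at most 24101670 reads in a library. The median was 20241014 reads in the KMT2A-rearranged and 20208828 in the other libraries. Markers of the labelled lines were checked in untreated cells, in CPM, the reads on a gene scaled to the total of its library. HOXA9, HOXA10 and MEIS1 summed to between 115 and 286 CPM in the KMT2A-rearranged lines and to between 0 and 264 CPM in the others, where OCI-AML3 held 264 CPM. MEIS1 itself was near 0 in THP-1 at 0.19 CPM. The 8 monocyte markers summed to between 410 and 4272 CPM in the KMT2A-rearranged lines and to between 10.1 and 477 CPM in the others, with OCI-AML3 again the highest of these. The defining monocyte marker CD14 was low in most lines, at a median of 0.276 CPM in the KMT2A-rearranged and 0.108 CPM in the other lines. The 7 erythroid markers summed to 6764 CPM in F-36P and to between 9.92 and 28.3 CPM in every other line. The 5 promyelocyte markers ranged from 1.02 CPM in F-36P to 29530 CPM in KASUMI-1 among the other lines and from 190 to 5582 CPM among the KMT2A-rearranged lines. The part of these untreated levels in the results below was not tested.

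Reads on KMT2A, on chromosome 11 (chr11:118436456-118526832, GRCh38), were lower in untreated KMT2A-rearranged lines. Line means there were 77.8 CPM in MOLM-13, 178 in MONO-MAC-6, 224 in MV-4-11, 93.3 in NOMO-1 and 90.8 in THP-1. They were 264 CPM in F-36P, 313 in HL-60, 304 in KASUMI-1, 296 in NB-4 and 219 in OCI-AML3. Apart from MV-4-11 and OCI-AML3, which lay next to each other, the classes did not overlap in this level.

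Etoposide changed many genes in every line, and at a fold change above 2 more were induced than repressed in each. A gene was called in a line when its FDR in edgeR's quasi-likelihood test was below 0.05 and its fold change above 2, over 13144 genes tested in all lines. Among the KMT2A-rearranged lines, MOLM-13 had 926 induced genes (7.05%) and 380 repressed genes (2.89%). MONO-MAC-6 had 902 induced (6.86%) and 480 repressed (3.65%), and MV-4-11 had 1373 induced (10.4%) and 247 repressed (1.88%). NOMO-1 had 811 induced (6.17%) and 422 repressed (3.21%), and THP-1 had 688 induced (5.23%) and 277 repressed (2.11%). These 5 lines thus lay close together, with between 965 and 1620 calls.

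The other lines spread wider, and held both the strongest and the weakest response. F-36P had 2277 induced genes (17.3%) and 838 repressed genes (6.38%), and KASUMI-1 had 1729 induced (13.2%) and 740 repressed (5.63%). NB-4 had 1407 induced (10.7%) and 518 repressed (3.94%). At the low end, OCI-AML3 had 736 induced (5.6%) and 136 repressed (1.03%), and HL-60 had 622 induced (4.73%) and 110 repressed (0.837%). The mean number of calls was 1301 ± 238 (SD, n = 5 lines) in the KMT2A-rearranged and 1823 ± 1024 (SD, n = 5 lines) in the other lines, and the exact two-sided permutation test over all splits of the lines gave p = 0.317. Induced genes made up 71.6% ± 7.87 of the calls in the KMT2A-rearranged and 77.1% ± 7.03 in the other lines (SD, n = 5 lines each; exact permutation p = 0.222). The standard deviation of the log2 fold change over genes, a measure of breadth without a threshold, was 0.645 ± 0.0636 against 0.772 ± 0.228 (SD, n = 5 lines each; exact permutation p = 0.286). The smallest p this design allows is 0.00794, so neither the size nor the balance of the response was shown to differ between the classes. Counting by FDR alone brought the induced shares to 52.6% and 52.7%, close to balance, and turned the difference in calls from -521 to 553 genes (exact permutation p = 0.675), and normalization by library size alone gave p = 0.0397 for the induced share, in an exact permutation test.

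**Figure D1:**
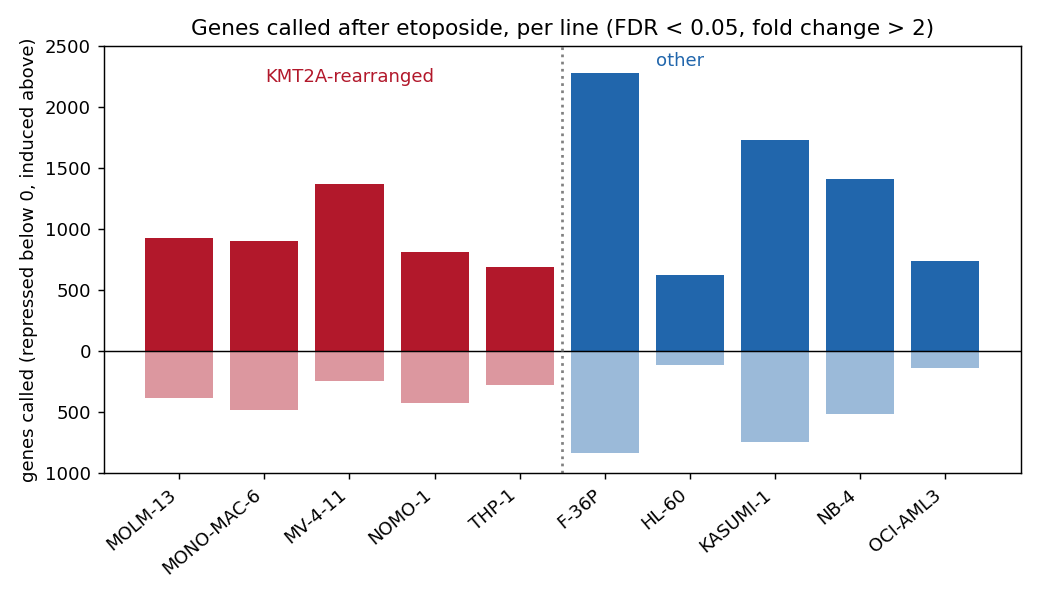
Bars give the number of genes called per line (vertical axis, genes), with induced genes above 0 and repressed genes below, red for the KMT2A-rearranged and blue for the other lines. The red lines lie between 965 and 1620 calls, while the blue lines run from 732 in HL-60 to 3115 in F-36P.

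Gene by gene, the response was not shown to differ between the classes. For each gene the log2 fold change of every line entered as 1 value, and the mean over KMT2A-rearranged lines minus the mean over other lines (the difference below) was tested by limma's moderated test with Benjamini-Hochberg adjustment over all 13144 genes. No gene passed an adjusted p of 0.05 (0.0%), and the lowest adjusted p was 0.900, so every gene named below has an adjusted p of at least 0.900. At an unadjusted p under 0.05 there were 610 genes (4.64%), close to what that threshold lets through by itself. Of these, 236 (1.8%) had a higher and 374 (2.85%) a lower response in the KMT2A-rearranged lines. In 99 genes (0.753%) the 5 and 5 line values did not overlap, 41 of them higher (0.312%) and 58 lower (0.441%). The p-values measure the spread between lines. With DESeq2 fold changes the count at an adjusted p of 0.05 was also 0, with 625 at an unadjusted p under 0.05. An exact permutation test per gene likewise gave 0 calls and 623 genes, 304 higher and 319 lower.

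The spread between lines was large next to the class difference. The median absolute difference was 0.17 log2 units, its median standard error was 0.23, and the 95% interval reached a median of 0.5 to either side. The median SD of a gene over lines was 0.31 within the KMT2A-rearranged and 0.36 within the other lines. A median of 6.95% of a gene's variance over lines lay between the classes (quartiles 1.68% and 17.4%). Any split of the lines takes up some share of the variance, so this value is not by itself a class effect. When the spread was taken between the libraries of a line instead, in a fit of all 60 libraries, 4924 genes passed, 2087 higher and 2837 lower. That test compares these 10 lines and does not carry over to other lines of each class.

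Omission of OCI-AML3 raised the genes at an unadjusted p under 0.05 to 1069, omission of HL-60 raised them to 945, and omission of THP-1 lowered them to 397, all with 0 calls after adjustment. Normalization by library size alone moved the median difference over all genes from -0.0039 to -0.09 and the lower share of the genes at an unadjusted p under 0.05 from 61.3% to 84.6% (610 genes selected anew under each), so a lean towards lower responses depends on the scaling.

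Among genes with a symbol, those with the smallest p and a lower response in the KMT2A-rearranged lines were REEP3, RAB17, TFEC, ZNF880, MS4A4A, COMMD3, ZDHHC11, ZNNT1, SEL1L3 and RALGPS2. REEP3 (chr10:63521401-63625128), which helps keep endoplasmic reticulum away from mitotic chromosomes, ranked first among these. Its log2 fold change was -1.07 in MOLM-13, -0.42 in MONO-MAC-6, -1.08 in MV-4-11, -0.35 in NOMO-1 and -0.45 in THP-1. It was -0.15 in F-36P, 0.28 in HL-60, 0.13 in KASUMI-1, 0.57 in NB-4 and 0.29 in OCI-AML3. Every KMT2A-rearranged line lay below every other line, 2 of them were called repressed, and the difference was -0.90 ± 0.20 (standard error, n = 5 and 5 lines, as for all differences below). In CPM, untreated REEP3 ran from 29.9 over a median of 92.2 to 146 in the 15 KMT2A-rearranged libraries and from 14.9 over 33.5 to 44.7 in the 15 others. After etoposide it ran from 14.5 over 52.6 to 107 and from 19.2 over 32.7 to 68.0.

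TFEC, a transcription factor of the MiT family that is active in macrophages, was called induced in 3 other lines and repressed in 1 KMT2A-rearranged line. Its fold change was 0.29 in MOLM-13, -0.41 in MONO-MAC-6, -0.07 in MV-4-11, -1.14 in NOMO-1 and -0.40 in THP-1. It was 1.36 in F-36P, 0.72 in HL-60, 1.08 in KASUMI-1, 0.40 in NB-4 and 2.24 in OCI-AML3 on the same log2 scale. The classes did not overlap, but the untreated median was 52.4 CPM in the KMT2A-rearranged against 0.579 CPM in the other libraries, and HL-60 went from 0 to 0.0671 CPM. MS4A4A, a surface protein of macrophages, had a difference of -1.89 ± 0.45 and was called induced in 4 of 5 other lines and in 0 of 5 KMT2A-rearranged lines. It rested on 0.355 CPM in the untreated other libraries against 10.3 CPM (medians).

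LGALS1, which encodes galectin-1, was one of the lower genes with at least 1 CPM in every untreated line. Its log2 fold change was 1.36 in F-36P, 1.31 in HL-60, 2.64 in KASUMI-1, 1.13 in NB-4 and 0.44 in OCI-AML3. In the KMT2A-rearranged lines it was 0.56 in MOLM-13, 0.14 in MONO-MAC-6, 0.13 in MV-4-11, -0.10 in NOMO-1 and -0.09 in THP-1. The difference was -1.25 ± 0.33, with a small overlap of MOLM-13 and OCI-AML3. Untreated KMT2A-rearranged libraries already held a median of 478 CPM, and the medians of the other libraries were 52.97 CPM untreated and 142 CPM after etoposide. COMMD3, MIRLET7IHG and EFCAB2 completed the lower genes of this expression class. COMMD3, which lies next to the polycomb gene BMI1 and shares transcripts with it, had a negative fold change in all 5 KMT2A-rearranged lines, between -0.54 and -0.12, and a positive one in all 5 others, between 0.02 and 0.62, but it was called in none.

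The remaining lower genes were mostly expressed at few CPM. RAB17, a small GTPase of membrane traffic, was called induced in 3 other lines and in 0 KMT2A-rearranged lines, with a difference of -1.85 ± 0.43. It was at 0 CPM in untreated F-36P and KASUMI-1, where the fitted fold change depends on the prior count. SEL1L3 was called induced in 3 other lines, with a difference of -1.19 ± 0.29 and untreated medians of 124 and 10.2 CPM. ZDHHC11, a palmitoyltransferase gene with a near-identical neighbouring copy that may share its reads, was called repressed in 4 of 5 KMT2A-rearranged and in 0 of 5 other lines, at -1.30 ± 0.32. ZNNT1, a long noncoding RNA, was called repressed in 2 KMT2A-rearranged lines, at -1.21 ± 0.30. RALGPS2, an exchange factor for Ral GTPases, and ZNF880, a zinc finger gene, had opposite signs in all lines of the classes, with differences of -0.76 ± 0.19 and -1.04 ± 0.24. The untreated median of ZNF880 was 0.0547 CPM in the KMT2A-rearranged and 1.64 CPM in the other libraries.

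Genes with a higher response in the KMT2A-rearranged lines changed less in size. The 10 with a symbol and the smallest p were TNKS1BP1, PLEKHA2, TNRC18, ALKAL1, SLC2A1, RNF111, SIX4, TXNIP, SORT1 and EP400. TNKS1BP1 (chr11:57299638-57324952), a tankyrase-binding protein tied to DNA damage repair and to the CCR4-NOT complex, had log2 fold changes of -0.02 in MOLM-13, 0.01 in MONO-MAC-6, -0.24 in MV-4-11, 0.07 in NOMO-1 and 0.30 in THP-1. The values were -0.58 in F-36P, -0.59 in HL-60, -0.57 in KASUMI-1, -0.26 in NB-4 and -0.49 in OCI-AML3. Values lay further below 0 in each of the other lines than in any KMT2A-rearranged line, though no line passed a fold change of 2. The difference was 0.52 ± 0.13 and the untreated medians were 32.7 CPM in KMT2A-rearranged and 74.96 CPM in other libraries.

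The chromatin genes TNRC18 and EP400 behaved alike, with differences of 0.66 ± 0.18 and 0.41 ± 0.13. EP400, the ATPase of the TIP60 histone acetyltransferase complex, lay between -0.19 and 0.09 in the KMT2A-rearranged lines and between -0.66 and -0.14 in the others. RNF111, a SUMO-directed ubiquitin ligase, was at 0.18 to 0.68 against -0.35 to 0.01, without overlap. PLEKHA2, a phosphoinositide-binding adaptor, was at 0.36 to 0.62 against -0.18 to 0.17, also without overlap. None of these 4 genes was called in any line. SIX4, a homeobox gene, was called induced in 2 KMT2A-rearranged lines at untreated medians of 0.201 and 12.9 CPM, with a difference of 1.07 ± 0.31. SORT1, the sorting receptor sortilin, was called induced in 1, at 1.07 ± 0.32. ALKAL1, a ligand of the receptor kinase ALK, was called induced in 5 of 5 KMT2A-rearranged lines and in 1 other line, but HL-60 and NB-4 held no reads of it in either condition.

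A pair of higher genes belongs to glucose uptake. SLC2A1, the glucose transporter GLUT1, had log2 fold changes of 0.38 in MOLM-13, -0.52 in MONO-MAC-6, 0.06 in MV-4-11, -0.46 in NOMO-1 and 0.24 in THP-1. It was -0.92 in F-36P, -0.55 in HL-60, -1.68 in KASUMI-1, -1.57 in NB-4 and -0.51 in OCI-AML3. It was called repressed in 2 other lines and in 0 KMT2A-rearranged lines, and its difference was 0.99 ± 0.27. TXNIP, which inhibits thioredoxin and glucose uptake, was called induced in 4 of 5 KMT2A-rearranged and in 0 of 5 other lines. Its fold change was 1.01 in MOLM-13, 1.11 in MONO-MAC-6, 0.85 in MV-4-11, 1.28 in NOMO-1 and 1.06 in THP-1. It was -0.42 in F-36P, 0.18 in HL-60, 0.67 in KASUMI-1, 0.95 in NB-4 and -0.03 in OCI-AML3. Only NB-4 reached into the range of the KMT2A-rearranged lines, and the difference was 0.79 ± 0.23. TXNIP was abundant in both classes, at untreated medians of 277 and 317 CPM. The 24 glycolysis and glucose uptake genes as a list had a median difference of 0.12, and it was -0.00131 without THP-1. At an unadjusted p under 0.05, 2 of the 24 were higher (1.8% of all genes) and 0 lower (2.85%).

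**Figure D2:**
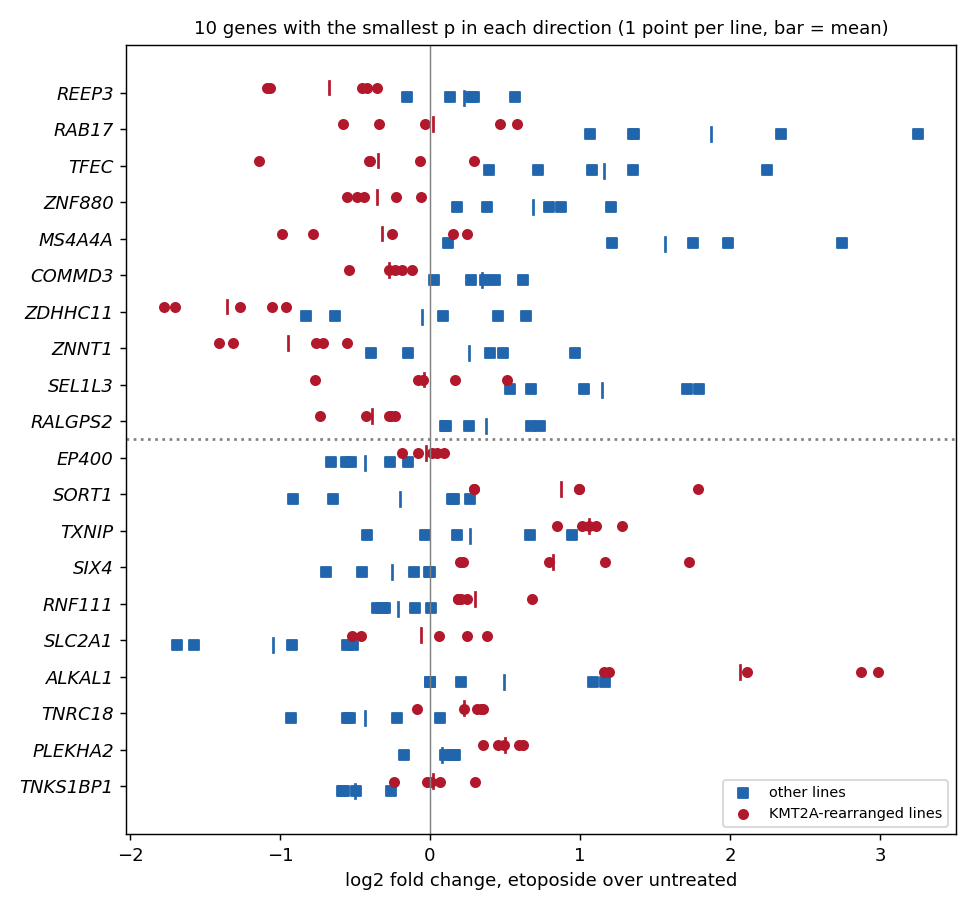
Each row is a gene and each point a line, with the log2 fold change on the horizontal axis and short bars for class means. Red circles are the KMT2A-rearranged and blue squares the other lines; the upper 10 genes are lower and the lower 10 higher in the KMT2A-rearranged lines, and none passed the adjusted threshold (lowest adjusted p 0.900).

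Untreated levels moved with these differences. Of the 374 genes with a lower response in the KMT2A-rearranged lines at an unadjusted p under 0.05, 299 (79.9%) had a higher untreated level in those lines, against 51.5% of all genes tested. Of the 236 with a higher response, 68 (28.8%) did. Among the 58 and 41 genes without overlap the shares were 67.2% and 26.8%. The untreated libraries enter both the level and the fold change, so these shares are not independent of the response, and their part in it was not tested. IRF8, a transcription factor that commits cells to the monocyte lineage, shows the range: its untreated median was 551 CPM in the KMT2A-rearranged and 3.71 CPM in the other libraries, where OCI-AML3 stood apart at a line mean of 1400 CPM.

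**Figure D3:**
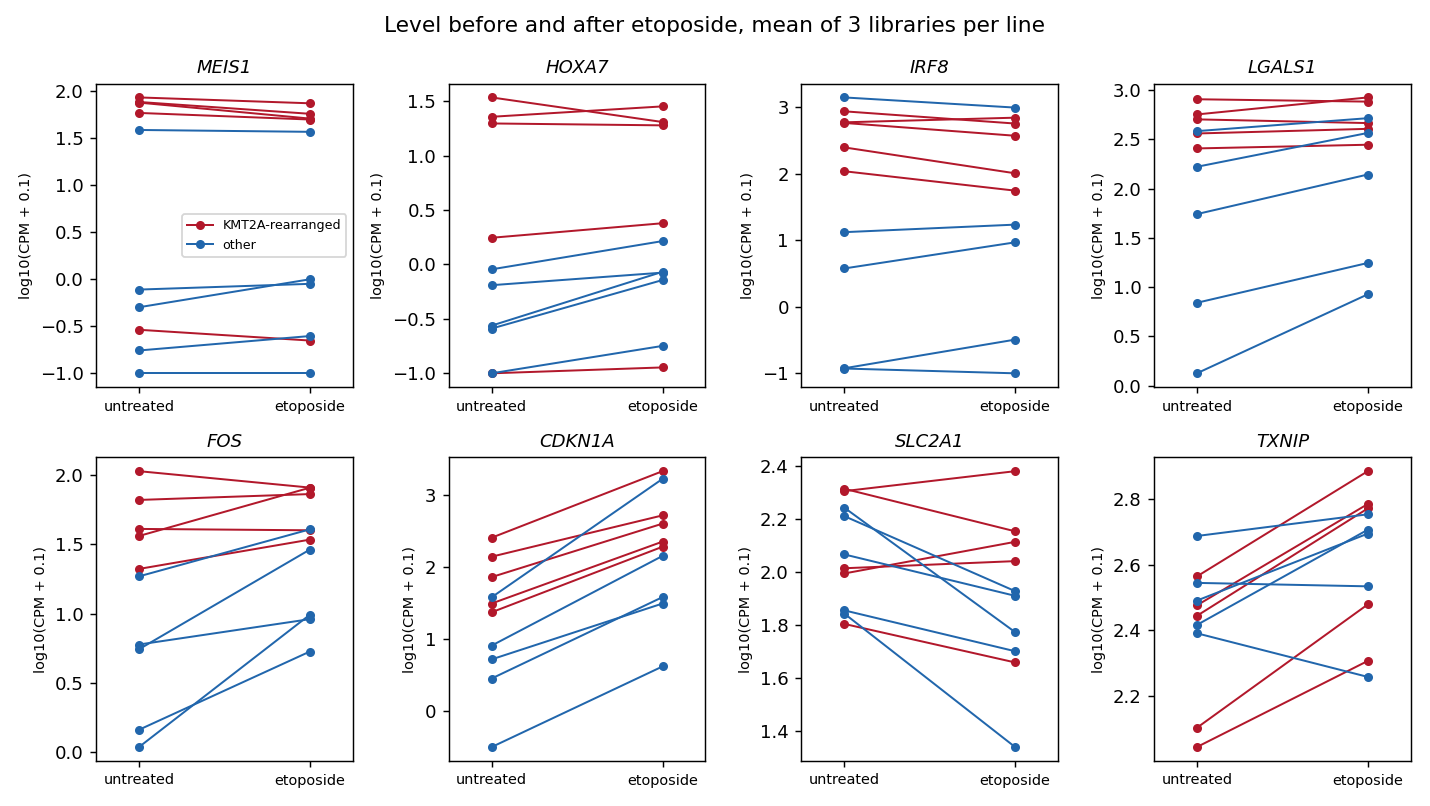
Each line joins the untreated and etoposide mean of a cell line (3 libraries) on a log10(CPM + 0.1) scale, red for KMT2A-rearranged and blue for other lines, in a panel per gene. The blue lines of LGALS1 and FOS start mostly below the red ones and slope upwards, IRF8 has OCI-AML3 at the top with the red lines, and TXNIP slopes upwards in all 5 red lines.

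The genes that KMT2A fusion proteins are known to maintain had medians below 0 after etoposide in each KMT2A-rearranged line. In the other lines the medians lay on either side of 0, and members were called in both directions. Of 20 such genes, 17 passed the filter on low counts, and their median log2 fold change lay between -0.42 and -0.15 in the KMT2A-rearranged and between -0.39 and 0.13 in the other lines. F-36P repressed 4 of the 17 (against 6.38% of all genes), NB-4 induced 4 (10.7%) and OCI-AML3 induced 3 (5.6%). The KMT2A-rearranged lines each induced 0 or 1 (5.23% to 10.4% of all genes) and repressed between 0 and 2 (1.88% to 3.65%). The median difference was -0.25, against -0.0039 over all genes, with 13 of 17 below 0. At an unadjusted p under 0.05, 3 of 17 were lower (MEIS1, HOXA7 and PBX3, against 2.85% of all genes) and 0 higher. MEIS1 was the member without overlap (0.441% of all genes were lower without overlap). MEIS1, the HOX cofactor, was at -0.43 in MOLM-13, -0.55 in MONO-MAC-6, -0.24 in MV-4-11, -0.20 in NOMO-1 and -0.36 in THP-1. It was 0.23 in F-36P, 0.00 in HL-60, 0.49 in KASUMI-1, 0.98 in NB-4 and -0.06 in OCI-AML3. Among the other lines OCI-AML3 alone held much of the transcript, at 38.6 CPM untreated and 36.9 CPM treated, and HL-60 had none in either condition. HOXA7 had a difference of -1.001 ± 0.30, with untreated medians of 19.4 CPM and 0.249 CPM, and it was at 0 CPM in untreated MV-4-11 and F-36P. Without KASUMI-1 the median difference of the list was -0.37, and without NB-4 it was -0.19.

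KMT2A itself was called in no line. Its log2 fold change was -0.21 in MOLM-13, 0.12 in MONO-MAC-6, -0.22 in MV-4-11, 0.21 in NOMO-1 and -0.05 in THP-1, and it lay between -0.38 and -0.20 in the other lines. The difference was 0.26 ± 0.11 (95% interval 0.0053 to 0.51). The fusion partner MLLT3 was at -0.14 in MOLM-13, -0.12 in MONO-MAC-6, 0.37 in MV-4-11, 0.38 in NOMO-1 and 0.10 in THP-1. In the other lines it was -0.83 in F-36P, -0.31 in HL-60, -0.74 in KASUMI-1, 0.21 in NB-4 and -0.92 in OCI-AML3, a difference of 0.64 ± 0.24. AFF1, the partner in MV-4-11, had a difference of 0.05 ± 0.27 (95% interval -0.54 to 0.64). Of the 21 genes of the KMT2A complex and its fusion partners, 18 had a difference above 0 (6487 of 13144 over all genes), with a median of 0.16. At an unadjusted p under 0.05, 3 were higher (1.8% of all genes) and 0 lower. Besides KMT2A and MLLT3 the 3 higher genes included ELL, a transcription elongation factor and fusion partner, at 0.32 ± 0.14. Without F-36P, 14 of the 21 were above 0 and the median was 0.13.

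The drug's own targets did not separate the classes. TOP2A, the isoform of dividing cells, was at -1.02 in MOLM-13, 0.06 in MONO-MAC-6, -0.14 in MV-4-11, -0.14 in NOMO-1 and -0.49 in THP-1. It was -0.35 in F-36P, -0.45 in HL-60, 1.14 in KASUMI-1, -0.06 in NB-4 and -0.32 in OCI-AML3. It was thus called repressed in MOLM-13 and induced in KASUMI-1, and the difference was -0.34 ± 0.31 (95% interval -1.01 to 0.33). TOP2B, the other isoform, was below 0 in 9 of the 10 lines and had a difference of -0.04 ± 0.19 (95% interval -0.46 to 0.38). The 8 topoisomerases and tyrosyl-DNA phosphodiesterases, which release trapped enzyme, had 0 members at an unadjusted p under 0.05. TOP1 and TDP2 had the smallest p among them, with differences of 0.33 ± 0.17 and -0.25 ± 0.16.

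p53 is the transcription factor that DNA breaks activate, and its targets told lines apart more than classes. Of the 25 p53 targets tested, OCI-AML3 induced 23 (against 5.6% of all genes), with a median log2 fold change of 1.94. MOLM-13 induced 15 (against 7.05%) with a median of 1.14, and NOMO-1, MONO-MAC-6 and MV-4-11 induced 10, 9 and 7 (against 6.17%, 6.86% and 10.4%) with medians of 0.68, 0.77 and 0.42. THP-1 induced 6 (against 5.23%), with a median of 0.58. F-36P induced 10 (against 17.3% of all genes) and KASUMI-1 induced 9 (13.2%), while NB-4 induced 3 (10.7%) and HL-60 induced 2 (4.73%), a share near that of all genes in NB-4. The median difference between classes was 0.03, with 0 higher (1.8% of all genes) and 2 lower (2.85%) at an unadjusted p under 0.05. It became 0.29 without OCI-AML3 and -0.13 without MOLM-13.

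CDKN1A (chr6:36676460-36687337), the cell cycle inhibitor p21, was called induced in all 10 lines. Its log2 fold change was 3.05 in MOLM-13, 2.86 in MONO-MAC-6, 1.87 in MV-4-11, 3.05 in NOMO-1 and 2.46 in THP-1. It was 4.15 in F-36P, 3.67 in HL-60, 2.56 in KASUMI-1, 3.75 in NB-4 and 5.45 in OCI-AML3. Only KASUMI-1 fell within the range of the KMT2A-rearranged lines, and the difference was -1.26 ± 0.44. The level told another order, since the untreated median was 75.4 CPM in the KMT2A-rearranged and 5.23 CPM in the other libraries, and 389 and 39.5 CPM after etoposide. HL-60 rose only from 0.221 to 4.11 CPM. DDB2, a sensor of damaged DNA, was the other lower gene at -0.72 ± 0.25. MDM2, which degrades p53 and was picked after its values were seen, was called induced in MOLM-13 at 1.85, in MV-4-11 at 1.12 and in OCI-AML3 at 2.59, and lay between -0.31 and 0.66 in the other 7 lines.

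The 19 genes of the ATF4 stress response, which lines switch on when amino acids or protein folding fail, split the KMT2A-rearranged class within itself. THP-1 induced 18 of 19 (against 5.23% of all genes) with a median log2 fold change of 2.08, and NOMO-1 induced 15 (against 6.17%) with a median of 1.75. MONO-MAC-6 induced 8 (6.86%). MOLM-13 induced 1 (7.05%) and repressed 7 (2.89%), with a median of -0.56, and MV-4-11 induced 1 (10.4%) and repressed 3 (1.88%). Of 2 members picked after their values were seen, TRIB3, a kinase-like brake of this pathway, was at 4.09 in THP-1 and 2.39 in NOMO-1 but -1.16 in MOLM-13 and -0.43 in MV-4-11. ASNS, asparagine synthetase, was at 2.08 and 1.14 but -1.27 and -1.34 in the same lines. The other lines ran from KASUMI-1, with 2 induced (13.2%) and 5 repressed (5.63%), to NB-4 and OCI-AML3, with 9 induced each (10.7% and 5.6%). The median difference was 0.18, with 0 members at an unadjusted p under 0.05 in either direction, and it ran from -0.23 without THP-1 to 0.45 without MV-4-11. GDF15, a stress cytokine, was called induced in all 5 KMT2A-rearranged lines and in F-36P and OCI-AML3, and it was at 0 CPM in untreated HL-60, KASUMI-1 and NB-4. After etoposide it reached at most 0.0614 CPM in these 3 lines, against at least 2.04 CPM in each of the KMT2A-rearranged lines.

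Cell cycle genes were repressed in the largest number in MOLM-13. There 18 of 32 G2/M mitotic genes (against 2.89% of all genes) and 16 of 32 E2F and G1/S replication genes were repressed, with medians of -1.05 and -0.998. In the 4 remaining KMT2A-rearranged lines the G2/M median lay between -0.44 and 0.11, and MV-4-11 repressed 4 members (against 1.88%). F-36P repressed 8 (against 6.38%), with a median of -0.34. KASUMI-1 moved the other way, with 8 G2/M genes induced (against 13.2%) and a median of 0.68. All 32 G2/M genes had a difference below 0 (6657 of 13144 over all genes). Their median was -0.33, but MOLM-13 and KASUMI-1 carried much of it. Without MOLM-13 the median was -0.14. UBE2C, a ubiquitin-conjugating enzyme of the anaphase-promoting complex, was the only member at an unadjusted p under 0.05, at -0.66 ± 0.25. Of the E2F list, CCND1 (cyclin D1) was higher at 0.80 ± 0.33, and the list's median difference of -0.08 became 0.18 without MOLM-13.

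Interferon-stimulated genes, which cells switch on against viruses, were induced in lines of both classes, in over 20 of 32 members in F-36P, KASUMI-1, NB-4, MONO-MAC-6, MV-4-11 and THP-1. F-36P induced 31 of 32 (against 17.3%), with a median log2 fold change of 3.30, KASUMI-1 induced 28 (13.2%) and NB-4 induced 24 (10.7%), while HL-60 and OCI-AML3 induced 8 each (4.73% and 5.6%). Among the KMT2A-rearranged lines MONO-MAC-6 and MV-4-11 induced 22 each (6.86% and 10.4%), THP-1 induced 21 (5.23%), NOMO-1 induced 10 (6.17%) and MOLM-13 induced 6 (7.05%). The median difference was -0.67, with 29 of 32 below 0 (6657 of 13144 over all genes), and without F-36P it was -0.19. At an unadjusted p under 0.05, 2 of 32 were lower (2.85% of all genes) and 0 higher (1.8%). XAF1, a pro-apoptotic partner of XIAP, was at 4.56 in F-36P, 1.74 in NB-4 and 1.52 in KASUMI-1. It was at -0.49 in MOLM-13, 0.55 in MONO-MAC-6, -0.07 in MV-4-11, 0.56 in NOMO-1 and 1.18 in THP-1. HL-60 and OCI-AML3 are left out of these XAF1 values. The classes overlapped for XAF1, since 0 of the 32 members were without overlap in either direction. The overlap came from HL-60, OCI-AML3 or both, as F-36P, NB-4 and KASUMI-1 lay above every KMT2A-rearranged line. RIGI, the sensor of viral RNA, had a difference of -1.09 ± 0.44, and it was at 3.18 in F-36P.

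NF-kB and inflammatory genes were induced in lines of both classes, and the shares of all genes induced stand in brackets. The count was 23 of 27 in MONO-MAC-6 (6.86%), 20 in NOMO-1 (6.17%), 16 in MV-4-11 (10.4%) and in THP-1 (5.23%), and 9 in MOLM-13 (7.05%). It was 21 in F-36P (17.3%), 19 in KASUMI-1 (13.2%), 18 in HL-60 (4.73%), 10 in NB-4 (10.7%) and 4 in OCI-AML3 (5.6%). The median difference was 0.15, and it was -0.15 without NB-4. IRAK2, a kinase of interleukin-1 and toll-like receptor signalling, was called induced in 5 of 5 KMT2A-rearranged lines and in 2 of 5 others, with a difference of 0.88 ± 0.35. CCL3, a chemokine with a near-identical copy that may share its reads, was the other higher member at 1.11 ± 0.46. Its untreated median was 0 CPM in the other libraries, and the difference was -0.26 with a lower prior count. Of the 24 AP-1 and early response genes, FOS was the only member at an unadjusted p under 0.05, and the list's median of -0.29 became 0.01 without F-36P. FOS was at 3.19 in F-36P, 1.84 in HL-60, 0.58 in KASUMI-1, 2.38 in NB-4 and 1.13 in OCI-AML3. It was 1.14 in MOLM-13, -0.38 in MONO-MAC-6, -0.06 in MV-4-11, 0.73 in NOMO-1 and 0.13 in THP-1, a difference of -1.51 ± 0.46. Its untreated medians were 41.2 CPM in the KMT2A-rearranged and 3.99 CPM in the other libraries.

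Between 5 and 13 of 18 monocyte and macrophage genes were called induced in each line. F-36P induced 13 (against 17.3% of all genes), HL-60 induced 6 (4.73%) and THP-1 induced 5 (5.23%), while MONO-MAC-6 induced 9 (6.86%) and repressed 3 (3.65%). Their median log2 fold change lay between 0.51 and 1.07 in the KMT2A-rearranged and between 0.40 and 1.62 in the other lines. The median difference over 18 genes was -0.56, and without KASUMI-1 it was -0.12. At an unadjusted p under 0.05, 1 was higher (VCAN, against 1.8% of all genes) and 3 were lower (ITGAX, IRF8 and CCR2, against 2.85%). In a bulk library, more cells in a monocytic state and more transcript per cell cannot be told apart. ITGAX, the integrin CD11c, was called induced in 5 of 5 other lines and in 3 of 5 KMT2A-rearranged lines. It was at 4.17 in F-36P, 2.11 in HL-60, 3.40 in KASUMI-1, 1.99 in NB-4 and 1.61 in OCI-AML3, against 1.45 in MOLM-13, 1.34 in MONO-MAC-6, 2.15 in MV-4-11, 0.22 in NOMO-1 and 0.34 in THP-1. The untreated medians were 40.7 CPM and 2.15 CPM in the same order of classes as for FOS. Azurophil granule genes, which mark promyelocytes, moved by line: NB-4 repressed 8 of 12 (against 3.94%) with a median of -1.44, HL-60, MONO-MAC-6 and NOMO-1 repressed 4 each (0.837%, 3.65% and 3.21%), and MOLM-13, MV-4-11 and F-36P repressed 0.

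MYC and ribosome biogenesis genes had medians below 0 in every line, from -1.38 in F-36P to -0.32 in THP-1. F-36P repressed 29 of 32 (against 6.38% of all genes), KASUMI-1 repressed 25 (5.63%), MONO-MAC-6 repressed 18 (3.65%), NB-4 repressed 17 (3.94%) and the remaining 6 lines between 0 and 8 (0.837% to 3.21%). Their median difference was 0.20 with 29 of 32 above 0 (6487 of 13144 over all genes), and without F-36P it was 0.04. Sterol synthesis genes had medians below 0 in 9 of the 10 lines, between -1.06 in NB-4 and -0.29 in OCI-AML3. NB-4 repressed 14 of 23 (against 3.94%), MONO-MAC-6 repressed 10 (3.65%) and KASUMI-1 repressed 9 (5.63%), but HL-60 repressed 2 (0.837%) and OCI-AML3 repressed 1 (1.03%). F-36P induced 11 (against 17.3%), with a median of 0.97. HSD17B7, which makes cholesterol precursors, was lower at -0.79 ± 0.34, and the list median of -0.41 became -0.12 without F-36P.

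Lysosome and antigen presentation genes had 3 of the higher members. PSAP, the precursor of the saposins that help digest lipids in lysosomes, was at 1.43 in MOLM-13, 0.86 in MONO-MAC-6, 1.45 in MV-4-11, 0.35 in NOMO-1 and 0.88 in THP-1. It was at 0.18 in F-36P, 0.05 in HL-60, 0.24 in KASUMI-1, 0.34 in NB-4 and 0.72 in OCI-AML3, a difference of 0.69 ± 0.22. MCOLN1, a lysosomal calcium channel, was higher at 0.38 ± 0.16. MOLM-13 induced all 9 MHC class II genes (against 7.05% of all genes), with a median of 1.73. MV-4-11 and NB-4 induced 5 each (10.4% and 10.7%), while MONO-MAC-6 and NOMO-1 induced 0 (6.86% and 6.17%). Untreated levels of the 12 class II genes listed summed to 0.425 CPM in NB-4 and to 400 CPM in MV-4-11. HLA-DPA1 had a difference of 0.87 ± 0.38, but at untreated medians of 0.477 and 0.0507 CPM, and reads of class II genes may be shared between near-identical family members. The BCL2 family, azurophil granule genes, ABC drug efflux transporters, polyadenylated histone transcripts and the 3 tested erythroid genes had 0 members at an unadjusted p under 0.05.

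**Figure D4:**
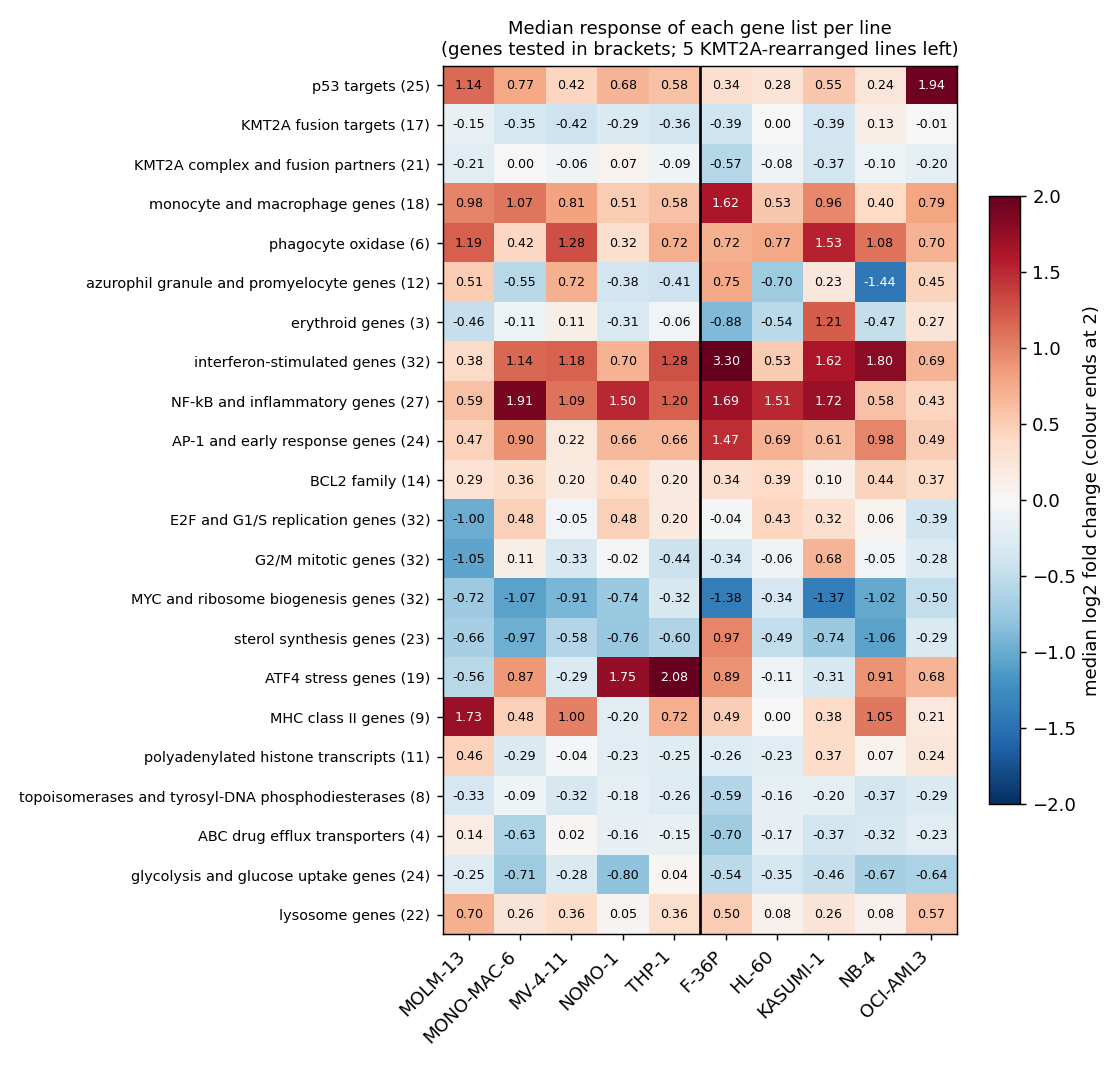
Rows are gene lists with the number of genes tested, columns are lines, and colour and number give the list's median log2 fold change, with the 5 KMT2A-rearranged lines to the left of the black line. Columns within a class differ as much as columns across it: p53 targets run from 0.42 to 1.14 on the left and from 0.24 to 1.94 on the right, and ATF4 genes from -0.56 to 2.08 on the left.

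A common response was shared across the classes. Of 3942 genes called induced in at least 1 line, 1990 were induced in at least 1 line of each class and 1360 in a single line. All 5 KMT2A-rearranged lines induced 82 genes, all 5 other lines induced 79, and 20 genes were induced in all 10. The 20 were FGR, GBP2, BTG2, TGFA, MFSD6, FILIP1L, CXCL8, PCDH12, CDKN1A, TMEM217, PRDM1, NRP1, MPZL3, CLEC7A, ITGA11, C3, BCL3, PTPRH, REPS2 and SAT1. They were chosen by their values, which are given as a description. Some were near 0 CPM in a line: TGFA went from 0 to 0.40 CPM in KASUMI-1 and CLEC7A from 0 to 0.18 CPM in MV-4-11. The highest fold changes of BTG2 and BCL3 given below also started low, at 0.38 CPM in KASUMI-1 and 0.19 CPM in HL-60. CXCL8, the neutrophil chemokine interleukin-8, rose by 2.30 to 4.30 in the KMT2A-rearranged and by 1.39 to 4.95 in the other lines on the log2 scale. BTG2, an antiproliferative p53 target, rose by 1.33 to 3.12 and by 1.53 to 4.19. BCL3, an atypical IkB protein that binds NF-kB, rose by 1.101 to 2.19 and by 1.36 to 4.35. SAT1, which breaks down polyamines, rose by 1.05 to 2.48 and by 1.35 to 3.04.

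These promoters are shown because the genes moved together in every line. RefSeq promoters (250 bases before to 50 after each start, GRCh38.p14) were found for 15 of the 20 genes, 23 promoters in all. The letters GGNNTTTCC, a short form of the NF-kB site, occurred on either strand in 5 of the 23 (BCL3, BTG2, CXCL8, PCDH12 and PRDM1), against 6.26% of all 35116 promoters, and this form was chosen after the 20 genes were known. TGACTCA, the AP-1 site, occurred for CXCL8 and PRDM1 (4.95% of all promoters), GAGGAAGT, the PU.1 site, for ITGA11 and PTPRH (2.59%), and TGACGTCA, CACGTG and the interferon response element for none (1.85%, 7.26% and 3.57%). Capitals mark the matches, which are a description and not shown to be sites. The windows lie at chr4:73740319-73740618, chr1:203305269-203305568 and chr19:44748458-44748757, all on the plus strand.
CXCL8: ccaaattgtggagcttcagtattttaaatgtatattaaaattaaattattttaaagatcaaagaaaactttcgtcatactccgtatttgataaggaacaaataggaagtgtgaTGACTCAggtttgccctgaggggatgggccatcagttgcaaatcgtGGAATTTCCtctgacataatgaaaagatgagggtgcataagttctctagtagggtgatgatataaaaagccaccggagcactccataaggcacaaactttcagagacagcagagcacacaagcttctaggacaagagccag
BTG2: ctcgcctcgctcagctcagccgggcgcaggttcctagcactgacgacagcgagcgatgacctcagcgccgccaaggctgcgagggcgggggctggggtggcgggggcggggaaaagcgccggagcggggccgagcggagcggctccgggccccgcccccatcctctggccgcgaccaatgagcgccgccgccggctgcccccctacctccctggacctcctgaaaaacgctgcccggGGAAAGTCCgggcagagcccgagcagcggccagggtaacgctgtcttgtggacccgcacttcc
BCL3: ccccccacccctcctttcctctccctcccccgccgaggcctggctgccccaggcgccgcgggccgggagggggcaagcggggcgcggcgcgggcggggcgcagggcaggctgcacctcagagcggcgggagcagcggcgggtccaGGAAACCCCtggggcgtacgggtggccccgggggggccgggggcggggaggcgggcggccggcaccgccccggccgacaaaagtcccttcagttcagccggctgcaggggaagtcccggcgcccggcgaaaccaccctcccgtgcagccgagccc
The CXCL8 window holds an AP-1 match ahead of the NF-kB match, and the other windows hold an NF-kB match in reverse orientation.

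Calls restricted to a class were few. No gene was induced in all 5 lines of a class and called in 0 lines of the other, in either class. Repressed in all 5 KMT2A-rearranged and in 0 other lines were 2 identifiers without a gene symbol here, ENSG00000260966 and ENSG00000278041, chosen after their values were seen. The second was at 0 CPM in untreated HL-60, KASUMI-1 and NB-4, where it could not be called repressed. It had a smaller p than REEP3, with an adjusted p of at least 0.900 like all genes. No gene was repressed in all 10 lines, 16 were in all 5 KMT2A-rearranged and 2 in all 5 other lines. With 1 exception allowed on each side, 23 genes were induced in at least 4 KMT2A-rearranged and at most 1 other line, and 45 the other way round. The 23 include TXNIP and, named after their values were seen, the small GTPase gene RHOC (difference 0.67 ± 0.28), the hexose transporter gene SLC2A6 (1.00 ± 0.38) and the cytokine signalling inhibitor SOCS1 (0.55 ± 0.21). HL-60 held no reads of SLC2A6 in either condition. Untreated medians of SOCS1 were 2.24 CPM in the KMT2A-rearranged and 0.487 CPM in the other libraries, with 0 CPM in untreated KASUMI-1. The 45 include LGALS1, MS4A4A and FOS and, likewise named afterwards, the integrin gene ITGAL (-1.56 ± 0.51). Repressed in this sense were 17 genes in the KMT2A-rearranged lines, HMGCS1 of sterol synthesis (-0.66 ± 0.64) among them. In the others there were 2, 1 of which was ZBTB16, the transcription factor PLZF (1.01 ± 0.32). Untreated medians of ZBTB16 were 1.31 CPM in the KMT2A-rearranged and 12.9 CPM in the other libraries. It was at 0 CPM in untreated MONO-MAC-6, where it could not be called repressed. In OCI-AML3, where it was called repressed, it went from 0.234 to 0.0307 CPM. The names HMGCS1 and ZBTB16 were both picked after their values were seen. HMGCS1 was lowest in NB-4, of the other class, at -3.38, against -1.87 to -1.09 in the KMT2A-rearranged lines, and it was called induced in F-36P at 1.28.

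Pairs of lines had responses of like similarity within and across classes. Pearson's r between the log2 fold changes of a pair of lines, across 13144 genes that are not independent replicates, was 0.29 to 0.651 (median 0.485) over the 10 pairs of KMT2A-rearranged lines. It was 0.339 to 0.619 (median 0.45) over the 10 pairs of other lines and 0.316 to 0.626 (median 0.482) over the 25 pairs between classes. All pairs share the gene set, and pairs with a line in common share its libraries, so no test was made. The nearest line was of the same class for 8 of 10 lines. MOLM-13 and MV-4-11 were nearest to each other at 0.651, as were MONO-MAC-6 and NOMO-1 at 0.651, while MOLM-13 and NOMO-1 were the least alike of all pairs at 0.29. OCI-AML3 was nearest to MOLM-13 at 0.626 and NB-4 to MONO-MAC-6 at 0.611.

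**Figure D5:**
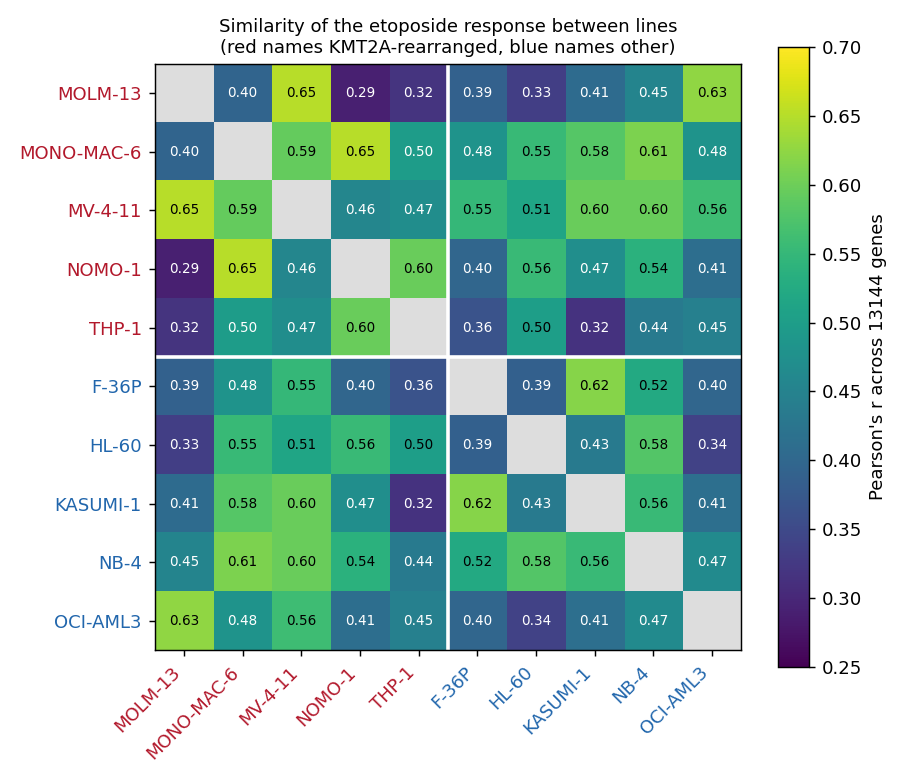
Colour and number give Pearson's r between the log2 fold changes of each pair of lines across genes, with the KMT2A-rearranged lines (red names) in the first 5 rows and columns and the other lines (blue names) after the white lines. The blocks within and between classes cover like ranges, with medians of 0.485, 0.45 and 0.482.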

How the data were processed

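Gene expression was measured by stranded mRNA sequencing in 66 libraries, of which 60 were used. Per the study's methods, the authors aligned reads with STAR 2.5.3a to GRCh38.p7 (gencode 25) after FastQC 0.11.5, and the deposited values are raw read counts per gene. Gene names and positions came from gencode 44 by identifier. OCI-AML2 was left out of all comparisons. The classes, members and gene lists were chosen with earlier results of these data known.

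Genes passing filterByExpr (minimum count 10, total 15) with a mean of at least 1 CPM in either treatment in at least 5 of the 10 lines were tested: 13144 of 19974. Each line was fitted alone with edgeR 4.0.16 (TMM, quasi-likelihood, prior count 2). Its log2 fold changes entered limma 3.58.1 (moderated test with trend), 5 lines against 5, with Benjamini-Hochberg adjustment. Per-line summaries used the exact two-sided permutation test over all splits of the lines. The study's edgeR 3.20.1 fits were not reused. Scripts were tested on simulated data.

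Named genes were, among genes with a symbol of a known gene, the 10 with the smallest p in each direction and 5 more in each direction among genes at 1 CPM or more in every untreated line. Added were KMT2A, MLLT3, AFF1, TOP2A, TOP2B, list genes without overlap between classes and the 2 smallest p of each list, of which 1 is not reported here. Others are said to be picked after their values were seen. Replicate numbers paired samples in 1 line (NB-4) of 10 by the correlation of deviations (minimum 0.1). Replicates differed beyond sampling noise (lowest chi-square per degree of freedom 2.3 over genes of at least 100 reads). Alternatives changed the filter, normalization, prior count, trend, scaling, block, tool and test, or left out a line or replicate. R 4.3.3, DESeq2 1.42.0, Python 3.11.15, numpy 2.4.6, pandas 2.3.3, scipy 1.17.1 and matplotlib 3.10.9 were used.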

Additional observations from a re-analysis of the deposited data

Results flagged for a closer look

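In 10 of the 144 groups of 5 lines looked at, the highest or lowest line stood apart by Dixon's test at its critical value of 0.71. Chance alone gives this in about 1 of 20 groups. Among the KMT2A-rearranged lines, NOMO-1 stood apart for TNRC18 (log2 fold change -0.084) and RNF111 (0.68), MONO-MAC-6 for HSD17B7 (-1.09), THP-1 for ELL (-0.14) and MOLM-13 for the erythropoietin receptor gene EPOR (-0.46). Among the other lines, OCI-AML3 stood apart for PLEKHA2 (-0.18), F-36P for XAF1 (4.56) and the histone gene H3-3B (-0.32), NB-4 for the oxidase subunit gene NCF4 (1.64) and KASUMI-1 for TOP2A (1.14).

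ZNF880, COMMD3 and RALGPS2 had opposite signs in all 5 lines of the classes, with differences of -1.04, -0.62 and -0.76. The test of the difference gave an adjusted p of 0.900 for each in limma.

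The OCI-AML2 libraries, which enter no comparison above, held a weak response: 3 of 13144 genes had an FDR below 0.05 in edgeR's quasi-likelihood test, 0 of them with a fold change above 2, and 435 had an unadjusted p under 0.05. The 3 genes were the p53 targets CDKN1A at a log2 fold change of 0.73 (adjusted p = 0.0003745), MDM2 at 0.47 (adjusted p = 0.007073) and ZMAT3 at 0.53 (adjusted p = 0.02037).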

How the results depend on the processing

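The count of genes past the adjusted threshold was 0 under each alternative run other than the fit of 60 libraries, which gave 4924 calls (2087 higher, 2837 lower) and 5927 genes at an unadjusted p under 0.05. That last count was otherwise 386 to 1069: 1009 without the filter on low levels and 386 with at least 1 CPM in all 10 lines, where 58 genes did not overlap, against 147 without the filter. Leaving out 1 line gave 397 to 1069 genes at an unadjusted p under 0.05 and 145 to 340 without overlap, and leaving out 1 replicate gave 524 to 748 and 80 to 125.

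The class difference in calls (-521.4) was 553.4 with FDR alone, -198.3 to -794.05 without 1 line and -402.6 to -551.6 without 1 replicate. The difference in induced share (-5.52 percentage points) was -10.24 with library size alone and -0.07 with FDR alone, -3.56 to -8.81 without 1 line and -4.98 to -7.84 without 1 replicate. The difference in SD (-0.127) was -0.0511 to -0.188 without 1 line and -0.114 to -0.146 without 1 replicate. The cause of these shifts was not tested.

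The replicate block gave 0 calls, 613 genes at an unadjusted p under 0.05, a difference of -496.2 calls, -5.62 percentage points induced and -0.125 in SD. Lowest correlations of same-numbered samples ran from -0.395 to 0.166 over lines.

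Of 1633 values of 69 named genes, 1565 kept their direction and side of the threshold, 55 passed only in the fit of 60 libraries and 13 changed sign. These were CCL3 at -0.26 with a lower prior count, EPOR at 0.10 without KASUMI-1 (-0.42 to 0.10 over the lines left out), and TOP2B at 0.11, 0.03 and 0.01 without KASUMI-1, MONO-MAC-6 and THP-1 and at -0.25 to 0.03 over the replicates left out. AFF1 was at -0.038 with library size alone, -0.051 with scaled fold changes, -0.13, -0.02 and -0.12 without F-36P, HL-60 and MOLM-13 (highest 0.19, without KASUMI-1), and -0.02 without replicate 3.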
